A study of Homo sapiens with 8 samples.

Results

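The genes of polyamine synthesis and breakdown were examined in MDA-MB-231 cells, an established human breast cancer cell line, and in a ρ0 line made from it, clone 27, in which mitochondrial DNA had been depleted. The 10 genes, ODC1, AMD1, SRM, SMS, OAZ1, OAZ2, AZIN1, SAT1, SMOX and PAOX, were taken as a list by name because the pathway starts from ornithine, a product of arginine. All 10 were found among the 23393 gene symbols of the read-count table, and all 10 passed the filter on low counts, which kept 15262 genes. RNA-seq had been done on 2 libraries in each of 4 groups, namely parental cells in full medium (parental control), parental cells under arginine starvation, ρ0 cells in full medium (ρ0 control) and ρ0 cells under arginine starvation. The sample labels describe starvation as arginine deiminase, an enzyme that destroys arginine, at 0.3 µg/mL in full growth medium for 48 h, whereas the study's text describes medium without arginine. The labels give high-glucose DMEM with serum for all 4 groups, while the study's methods add pyruvate, uridine and ethidium bromide to the medium in which ρ0 cells were kept. The ρ0 groups stand for 1 clone, so that the loss of mitochondrial DNA, these supplements and other traits of that clone cannot be told apart. Nothing in the labels says that the 2 libraries of a group came from separate cultures, so the p-values measure the spread between these libraries, which may be technical.

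Polyamines (putrescine, spermidine and spermine) are small positively charged molecules that bind nucleic acids and are needed for growth and translation. Ornithine decarboxylase makes putrescine from ornithine, and spermidine synthase and spermine synthase then add aminopropyl groups taken from decarboxylated S-adenosylmethionine. Antizymes bind ornithine decarboxylase and send it to the proteasome, antizyme inhibitor takes antizyme away from it, and acetylation or oxidation turns the higher polyamines back or marks them for export.

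The libraries held between 25259503 and 31022155 counts. The 2 ρ0 control libraries stood apart from each other, their biological coefficient of variation being 25.1% against 5.18% between the parental controls, 2.25% between the arginine-starved parental and 1.84% between the arginine-starved ρ0 libraries. Many results that use the ρ0 controls are therefore given with and without each of them. A single value given elsewhere can also depend on the control library. Without either of them the estimate of spread for all comparisons is smaller, and more genes pass the test. VIM, CD44, AXL, CAV1, MSN and ANXA1, which mark this mesenchymal line, were above 100 CPM (counts scaled to a common library size) in all 8 libraries, while ESR1 and PGR stayed at or below 0.180 CPM. Other genes listed as low in this line reached higher levels. ERBB2 held 30.1 to 86.9 CPM, GATA3 4.38 to 18.6 CPM, CDH1 up to 15.9 CPM and FOXA1 up to 9.82 CPM. The summed level of 6 luminal markers ranged from 30.4 to 31.4 CPM in arginine-starved parental cells and from 163 to 164 CPM in ρ0 controls, mainly KRT19 (up to 146 CPM), and its part in the results below was not tested. None of the 13 protein genes of mitochondrial DNA is listed in the table (0 of 13), so the labelled depletion could not be checked from these counts. In such bulk libraries fewer cells that express a gene and less RNA per cell cannot be told apart.

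Arginine starvation raised the synthesis genes ODC1 and AMD1 in parental cells, together with AZIN1, SAT1 and SMOX, and lowered PAOX. SRM was called higher there too, but this call was lost with some scalings and leave-one-out fits given below. CPM were normalized by edgeR's TMM method, and a gene was called where the Benjamini-Hochberg adjusted p-value of edgeR's quasi-likelihood test over all 15262 genes was under 0.05. In parental cells 6 of 10 members were called higher and 1 lower, where 30.4% of all tested genes were higher and 35.5% lower. Differentially expressed genes (DEGs), which also had a log2 fold change above 1 or below -1, were 4 higher and 1 lower, against 34.9% of all genes as DEGs in either direction. In ρ0 cells 4 members were called higher and 2 lower, against 19.2% and 22.1% of all genes, and 1 member, ODC1, was a DEG, against 12.4%. Fewer members were called in ρ0 cells without either arginine-starved ρ0 library, where fewer of all tested genes were called as well. Without ρ0 control replicate 1 the log2 fold change of SAT1 in ρ0 cells was 1.02. Over the members the median log2 fold change was 0.74 in parental and 0.19 in ρ0 cells, beside medians of -0.07 and -0.02 over all tested genes.

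**Figure D1:**
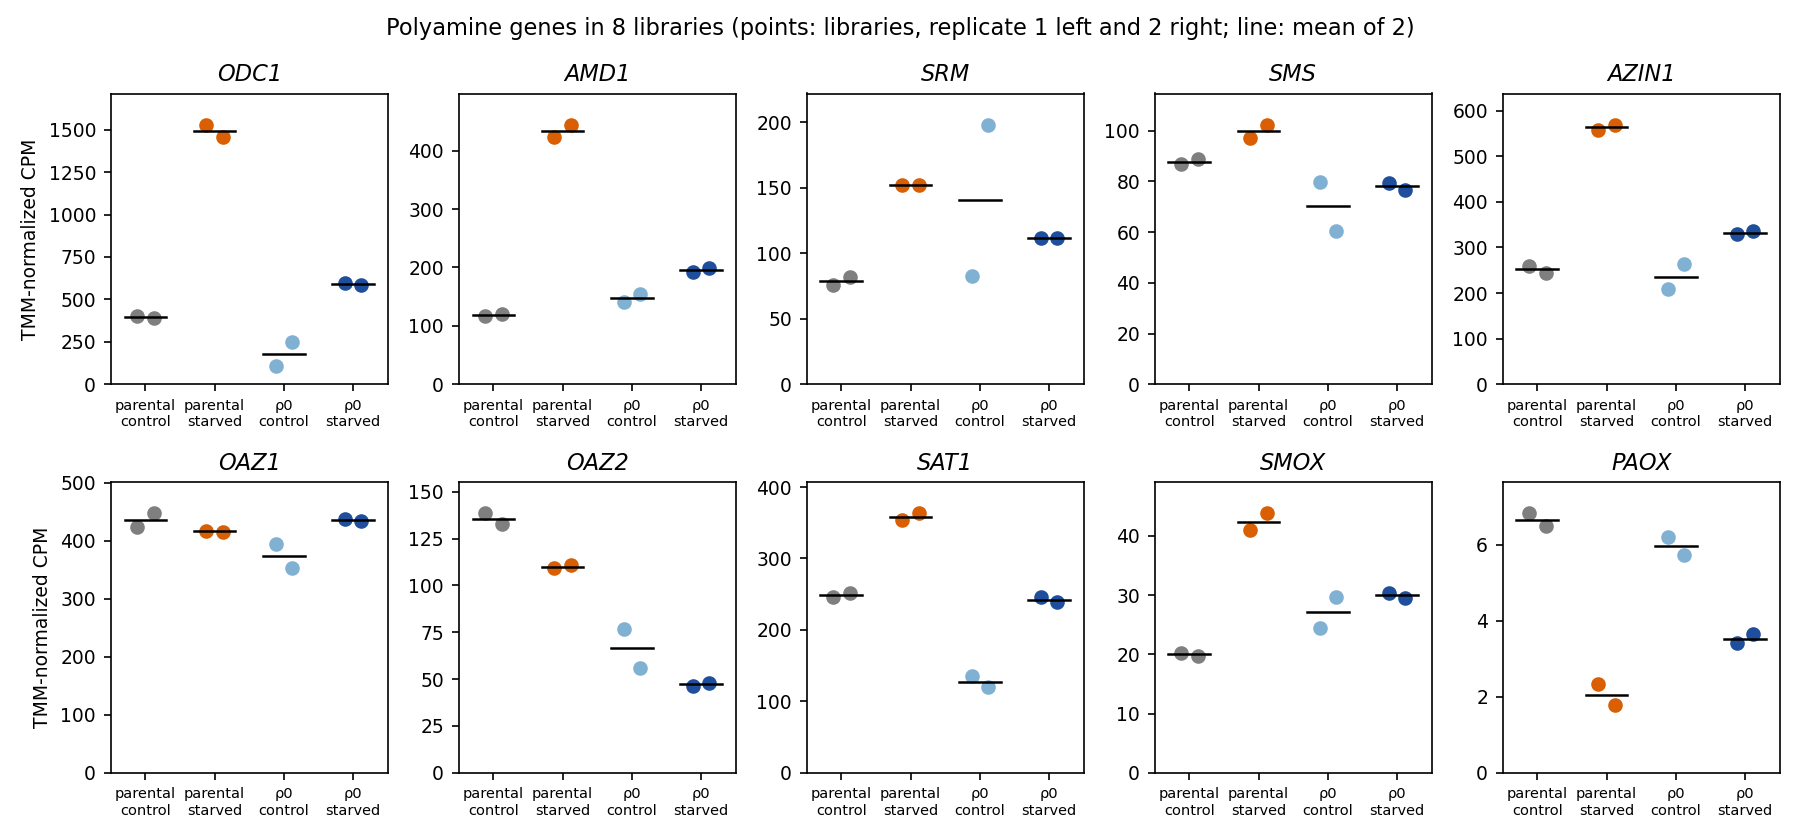
TMM-normalized CPM (vertical axes, from 0) of the 10 polyamine genes in the 4 groups; each point is 1 library, with replicate 1 at the left and replicate 2 at the right, and the line is the mean of 2. ODC1 and SRM differ between the ρ0 control libraries (107 and 250.3 CPM for ODC1), and the other groups lie close together.

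Among the synthesis genes, ODC1, which encodes ornithine decarboxylase, had the largest rise, close to that of AMD1 in parental cells. It stood at 401 and 392 CPM in the parental controls and at 1529 and 1456 CPM in the arginine-starved parental libraries. In ρ0 cells it was at 107 and 250.3 CPM in the controls and at 597 and 584 CPM after starvation. Starved and control libraries did not overlap in either line. ODC1 rose 3.77-fold in parental cells (log2 fold change 1.91 ± 0.33 SE, edgeR adjusted p = 0.00153) and 3.31-fold in ρ0 cells (1.73 ± 0.33, adjusted p = 0.00538). The size in ρ0 cells depended on the control library, since it was 1.24 on the log2 scale without ρ0 control replicate 1 and 2.48 without replicate 2.

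Parts of the promoter windows of ODC1 and SRM are shown because ODC1 is a textbook target of MYC, which binds the E-box CACGTG. MYC was itself among the pathway genes that rose in both lines. Windows from 250 bases before to 50 after a RefSeq start (GRCh38.p14) were given for 7 of the 10 members, with none matched for AZIN1, SMOX and PAOX. The palindrome CACGTG, which reads the same on both strands, was found in 2 of these 7, ODC1 and SRM, and in 8.77% of the 27305 genes with such a window. ODC1 has 2 RefSeq starts 315 bases apart, and only the window of the second held E-boxes, at bases -29 and 5 from that start. The 78 bases printed around them are chr2:10447994-10448071 (minus strand). In the GENCODE annotation this stretch lies in an intron of transcript ODC1-201 and outside transcript ODC1-202. The SRM E-box lay at base -199, in chr1:11060170-11060247 (minus strand), upstream of transcript SRM-201. In the sequences, 5′ to 3′, capitals mark the E-boxes.
ODC1 second start: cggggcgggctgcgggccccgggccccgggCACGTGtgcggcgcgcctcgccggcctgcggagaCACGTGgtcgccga
SRM start: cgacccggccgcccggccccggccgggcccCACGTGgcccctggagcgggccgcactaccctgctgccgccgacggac
A match is a stretch of letters and not a measured binding site. Searched on both strands in the same windows, the cAMP response element TGACGTCA was in 0 of the 7 members and 2.25% of all genes, and the ATF4 element TGATGNAAN in 0 of the 7 and 4.45% of all genes.

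AMD1 encodes S-adenosylmethionine decarboxylase, which supplies the aminopropyl donor. Its CPM were 117 and 120.2 in parental controls and 423 and 444 after starvation. In ρ0 cells they were 141 and 154 in the controls and 192 and 199 after starvation. The groups did not overlap in either line, and the gap was far wider in parental cells. AMD1 rose 3.65-fold in parental cells (log2 fold change 1.87 ± 0.08 SE, edgeR adjusted p = 7.53e-06) and 1.33-fold in ρ0 cells (0.41 ± 0.08, adjusted p = 0.00569). With the ρ0 libraries fitted alone, whose controls spread widely, the latter had an adjusted p of 0.0558.

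SRM, which encodes spermidine synthase, was at 75.7 and 81.7 CPM in parental controls and at 152 and 152 CPM after starvation. The ρ0 controls held 82.8 and 198 CPM, and the arginine-starved ρ0 libraries, at 111 and 112 CPM, lay between them. In parental cells SRM rose 1.93-fold (log2 fold change 0.95 ± 0.33 SE, edgeR adjusted p = 0.0369). This call was lost on leaving out any single library other than a ρ0 control, and with upper-quartile or total-count scaling. The log2 fold change was 0.90 to 1.01 in the fits without 1 library. With the parental libraries fitted alone it was 0.99, and SRM was called (edgeR adjusted p = 5.05e-11). In ρ0 cells no change was called (-0.33 ± 0.33, adjusted p = 0.46), and the sign turned with the control library, from -0.83 without replicate 1 to 0.44 without replicate 2. Only 1.51% of the tested genes differed as much between the ρ0 controls as ODC1, and 1.4% as much as SRM.

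SMS encodes spermine synthase, which makes spermine from spermidine. It held 86.9 and 88.9 CPM in parental controls and 97.1 and 102 CPM after starvation. In ρ0 cells it held 79.9 and 60.4 CPM in the controls and 79.4 and 76.8 CPM after starvation. The log2 fold change was 0.18 in parental cells (95% confidence interval -0.11 to 0.48, edgeR adjusted p = 0.237) and 0.16 in ρ0 cells (-0.14 to 0.45, adjusted p = 0.363). Neither passed the test, although the parental libraries did not overlap and passed it when they were fitted alone (0.23, adjusted p = 0.00104) or without either ρ0 control (adjusted p = 0.00153 and 0.000286). In ρ0 cells the value was 0.37 without control replicate 1, where it was called (adjusted p = 3.19e-05), and -0.02 without replicate 2 (0.775).

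The regulators of ornithine decarboxylase went separate ways. AZIN1, the antizyme inhibitor, stood at 260.0 and 245 CPM in parental controls and at 557 and 569 CPM after starvation. The ρ0 controls stood at 209.5 and 263 CPM and the arginine-starved ρ0 libraries at 329 and 336 CPM. Starved libraries were above the controls in both lines, and AZIN1 rose 2.23-fold in parental cells (log2 fold change 1.16 ± 0.11 SE, edgeR adjusted p = 9.02e-05) and 1.41-fold in ρ0 cells (0.49 ± 0.11, adjusted p = 0.0111). The ρ0 value was 0.34 without ρ0 control replicate 1 and 0.68 without replicate 2. The ρ0 call was lost without either arginine-starved ρ0 library (adjusted p = 0.056 and 0.0647) and with the ρ0 libraries fitted alone (0.072).

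OAZ1, the abundant antizyme, held 423 and 447 CPM in parental controls and 417 and 415 CPM after starvation. Its ρ0 controls held 395 and 353 CPM, and the arginine-starved ρ0 libraries 438 and 434 CPM. The starved libraries were below the controls in parental cells and above them in ρ0 cells, but neither difference passed the test (log2 fold change -0.06, 95% confidence interval -0.26 to 0.13, edgeR adjusted p = 0.516, and 0.22, 0.03 to 0.41, adjusted p = 0.0681). The ρ0 difference was called without either ρ0 control, at 0.30 without replicate 1 (adjusted p = 1.97e-05) and 0.15 without replicate 2 (0.00739), with DESeq2 (0.0448) and with the length trend removed (0.0446). Antizyme protein is made through a ribosomal frameshift that polyamines promote, which mRNA levels do not show. JSRP1, on the opposite strand, shares 6.87% of the OAZ1 exon bases, and without a stated strand setting their reads cannot be told apart there.

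OAZ2, a second antizyme, held 139 and 133 CPM in parental controls and 109 and 111 CPM after starvation. In ρ0 cells it fell from 76.9 and 55.8 CPM to 46.5 and 47.9 CPM. Starved libraries lay below the controls in both lines, but only the ρ0 difference was called (log2 fold change -0.49 ± 0.14 SE, edgeR adjusted p = 0.0268, against -0.30 ± 0.14, adjusted p = 0.0878 in parental cells). These calls were fragile, since the ρ0 call was lost on leaving out any single library other than a ρ0 control (adjusted p from 0.055 to 0.154), while the parental one was gained with the parental libraries fitted alone (-0.26, adjusted p = 0.000188) or without either ρ0 control. The ρ0 value was -0.24 without ρ0 control replicate 1 and -0.69 without replicate 2, and it was called in both fits (adjusted p = 0.00195 and 1.88e-08).

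Breakdown genes moved in opposite directions. SAT1 encodes the acetyltransferase that tags spermidine and spermine for oxidation or export. It held 245 and 252 CPM in parental controls and 354 and 363 CPM after starvation. In ρ0 cells it held 135 and 119.5 CPM in the controls and 247 and 238 CPM after starvation. Starvation raised it in both lines without overlap, 1.44-fold in parental cells (log2 fold change 0.53 ± 0.08 SE, edgeR adjusted p = 0.00101) and 1.90-fold in ρ0 cells (0.93 ± 0.08, adjusted p = 0.000297).

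SMOX encodes spermine oxidase, which turns spermine back into spermidine. It stood at 20.2 and 19.8 CPM in parental controls and at 40.9 and 43.8 CPM after starvation, a 2.12-fold rise (log2 fold change 1.08 ± 0.12 SE, edgeR adjusted p = 0.00014). Its ρ0 controls stood at 24.4 and 29.7 CPM and its arginine-starved ρ0 libraries at 30.4 and 29.4 CPM. The ρ0 libraries overlapped and no change was called there (0.15, 95% confidence interval -0.12 to 0.41, adjusted p = 0.35). The value was 0.011 without ρ0 control replicate 1 (adjusted p = 0.922) and 0.31 without replicate 2, where it was called (0.00302).

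PAOX, the peroxisomal oxidase of acetylated polyamines, was the member called lower in parental cells. It had few reads, from 50 to 228 counts a library. Its CPM were 6.84 and 6.50 in parental controls and 2.34 and 1.77 after starvation, and in ρ0 cells 6.21 and 5.72 in the controls and 3.41 and 3.64 after starvation. PAOX fell by 1.70 on the log2 scale in parental cells (SE 0.18, edgeR adjusted p = 0.000133) and by 0.76 in ρ0 cells (SE 0.17, adjusted p = 0.011). The ρ0 call was lost without either arginine-starved ρ0 library (adjusted p = 0.0945 and 0.068) and with the ρ0 libraries fitted alone (0.059). Limma-voom with group weights on all 8 libraries did not call it either (adjusted p = 0.136).

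**Figure D2:**
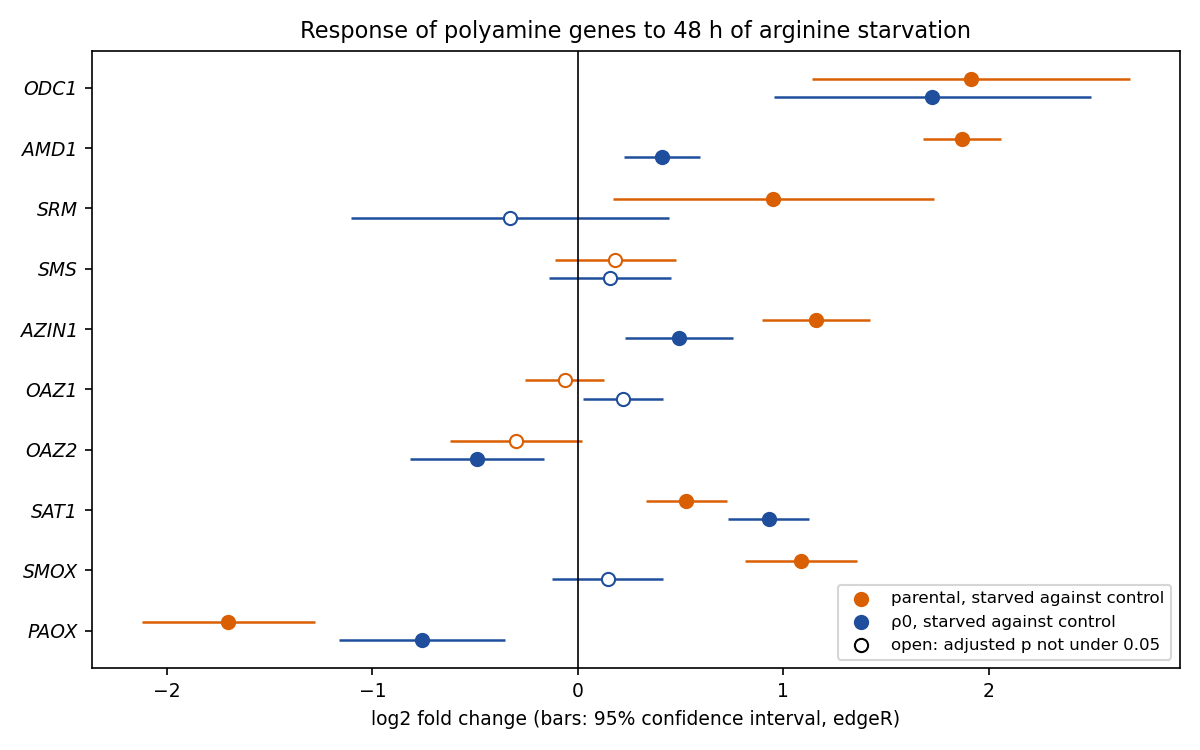
Log2 fold change of each polyamine gene, arginine-starved against control (horizontal axis), in parental (orange) and ρ0 (blue) cells, with 95% confidence intervals from edgeR; open points did not pass the adjusted p threshold. AMD1, AZIN1 and SMOX lie further from 0 in parental cells (1.87 against 0.41 for AMD1), and SAT1 lies further from 0 in ρ0 cells.

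Whether the response differed between the lines was tested as an interaction, the ρ0 response minus the parental one. It was called higher for 2 members and lower for 3, against 21.6% and 18.8% of all tested genes. Without ρ0 control replicate 1 or 2 it was called for 9 or 10 members, where 67.4% or 60.7% of all genes were called, and without any other single library for 2 or 3, where between 23.3% and 26.2% of all genes were. The rise of AMD1 was smaller in ρ0 cells by the widest margin (interaction -1.46 ± 0.11 SE on the log2 scale, edgeR adjusted p = 0.000258), and it stayed called in each leave-one-out fit (-1.52 to -1.42). SMOX also rose less (-0.94 ± 0.16, adjusted p = 0.00444), likewise in each leave-one-out fit (highest adjusted p 0.0288). AZIN1 rose less (-0.67 ± 0.16, adjusted p = 0.014), PAOX fell less (0.94 ± 0.25, adjusted p = 0.0209) and SAT1 rose more in ρ0 cells (0.40 ± 0.12, adjusted p = 0.0319). For AZIN1, PAOX and SAT1 the direction held in each leave-one-out fit but the call did not, with adjusted p-values of up to 0.0631, 0.0893 and 0.149 respectively. SAT1 lost its call without any single library other than a ρ0 control, AZIN1 without any of these but parental control replicate 1, and PAOX without any of these but arginine-starved parental replicate 1.

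The remaining 5 interactions were not called. For ODC1 the difference was -0.19 (95% confidence interval -1.25 to 0.87, edgeR adjusted p = 0.775), an interval that leaves room for a large difference either way. It was -0.67 without ρ0 control replicate 1 (adjusted p = 1.31e-08) and 0.53 without replicate 2 (adjusted p = 1.41e-06). For SRM it was -1.28 (-2.38 to -0.18, adjusted p = 0.0641), and it was called at -1.78 without ρ0 control replicate 1 (4.66e-13) and at -0.54 without replicate 2 (6.02e-06). SMS, OAZ1 and OAZ2 had differences of -0.03, 0.29 and -0.19 (adjusted p = 0.927, 0.0901 and 0.475). Without ρ0 control replicate 1 and 2, SMS was called at 0.19 and -0.24 (adjusted p = 0.0362 and 0.00901) and OAZ1 at 0.37 and 0.18 (3.24e-05 and 0.0136), while OAZ2 was at 0.06 (0.505) and, called, at -0.43 (8.06e-05). The small p-values without a ρ0 control rest on the remaining pairs alone, since the discordant pair no longer enters the estimate of spread and the lone control is assumed to vary like the other groups.

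**Figure D3:**
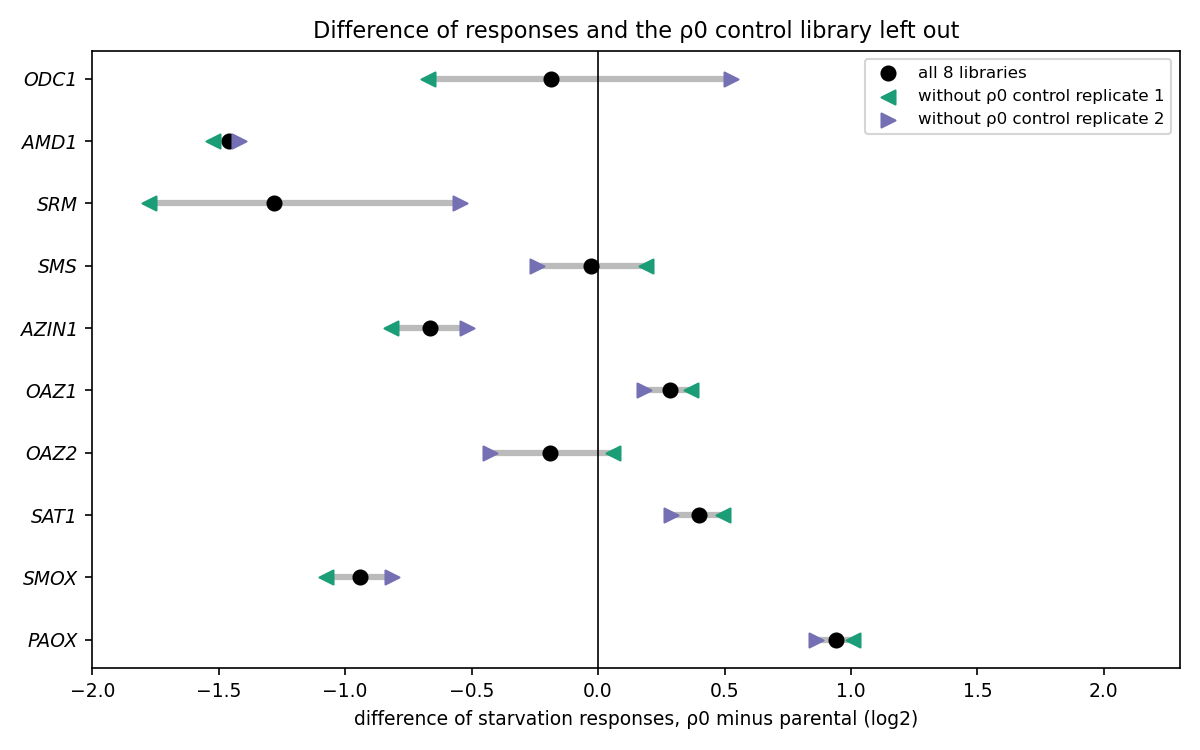
Difference of the starvation responses, ρ0 minus parental (log2, horizontal axis), for each gene with all 8 libraries (black) and without ρ0 control replicate 1 (green) or replicate 2 (violet). The difference keeps its sign for AMD1 (-1.52 and -1.42), SRM, AZIN1, OAZ1, SAT1, SMOX and PAOX, and turns for ODC1 (-0.67 and 0.53), SMS and OAZ2.

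The lines also differed before and after starvation, in comparisons that share their libraries with the responses above. Among controls, 2 members were called higher and 3 lower in ρ0 cells, against 30.5% and 31.8% of all tested genes, and 2 were DEGs, against 30.9%. The number of members called and the number of DEGs changed with the library left out. The share of all tested genes called changed with it as well. ODC1 was lower (log2 difference -1.15 ± 0.33 SE, edgeR adjusted p = 0.0166), and without a ρ0 control replicate it was -0.66 or -1.84. This call was lost without either parental control (adjusted p = 0.0722 and 0.0665). OAZ2 (-1.03 ± 0.14, edgeR adjusted p = 0.000481) and SAT1 (-0.97 ± 0.08, adjusted p = 5.81e-05) were lower as well. Without ρ0 control replicate 1 and 2, OAZ2 was at -1.28 and -0.77 and SAT1 at -1.06 and -0.82. AMD1 (0.31 ± 0.08, adjusted p = 0.0107) and SMOX (0.44 ± 0.12, adjusted p = 0.0125) were higher. The AMD1 call was lost without parental control replicate 1 (0.0654) and the SMOX call without either parental control (0.0568 and 0.0682). SRM was not called (0.84, adjusted p = 0.0606), but it was without ρ0 control replicate 1 (1.33, 1.87e-13) and not without replicate 2 (0.13, 0.052). Without ρ0 control replicate 1, SMS (-0.54) and OAZ1 (-0.30) were called lower, and AZIN1 was called lower without replicate 2 (-0.21).

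Among the arginine-starved libraries, whose replicates lay close together, 7 members were lower in ρ0 than in parental cells and 1 higher, against 33.5% and 32.9% of all tested genes. Fewer members were called without arginine-starved ρ0 replicate 2, where fewer of all tested genes were called as well. ODC1 was lower by the largest margin of the 10 (log2 difference -1.34 ± 0.33 SE, edgeR adjusted p = 0.00787; 0.0514 without arginine-starved ρ0 replicate 2), followed by OAZ2 (-1.22 ± 0.14, adjusted p = 0.000187) and AMD1 (-1.15 ± 0.08, adjusted p = 1.63e-05). AZIN1 (-0.76), SAT1 (-0.56), SMOX (-0.50) and SMS (-0.35) were lower by less, and SMS lost its call on leaving out any single library other than a ρ0 control (adjusted p up to 0.204). The SMOX call was lost without arginine-starved ρ0 replicate 2 (adjusted p = 0.0543). PAOX was higher in ρ0 cells (0.78 ± 0.19, adjusted p = 0.00712; 0.06 without arginine-starved parental replicate 2). SRM (-0.45, 95% confidence interval -1.22 to 0.33) and OAZ1 (0.07, -0.13 to 0.26) did not pass the test. SRM stood at 152 and 152 CPM in parental and at 111 and 112 CPM in ρ0 cells. The pooled spread behind its edgeR interval includes the ρ0 controls, at 82.8 and 198 CPM. Limma-voom with group weights called SRM lower in ρ0 cells (-0.45, adjusted p = 5.76e-06).

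Levels can be set side by side between genes only per length, here as CPM per kb of exon in the GENCODE annotation (mean ± SD, n = 2). In parental controls ODC1 (134 ± 2.01) and OAZ1 (127 ± 4.99) were highest and did not differ beyond their summed SDs, and SAT1 followed at 99.6 ± 1.91. SRM (41.5 ± 2.23), SMS (40.7 ± 0.64) and AZIN1 (39.3 ± 1.70) likewise did not differ beyond their SDs, nor did OAZ2 (17.7 ± 0.53) and AMD1 (16.9 ± 0.30). SMOX (6.78 ± 0.099) and PAOX (2.93 ± 0.11) were lowest. After starvation of parental cells ODC1 stood at 503 ± 17.5, far above SAT1 at 144 ± 2.73 and OAZ1 at 121 ± 0.33. In ρ0 controls OAZ1 (109 ± 8.56) had the highest mean, but SRM (74.0 ± 42.9) overlapped it, and SRM and ODC1 (60.2 ± 34.2) could not be ordered against SAT1 (51.0 ± 4.47) either. After starvation of ρ0 cells ODC1 led again at 199 ± 3.05, above OAZ1 (127 ± 0.66) and SAT1 (97.1 ± 2.32). The lengths cover all annotated exons of a gene, so a gene of which short transcripts are used is set too low on this scale.

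**Figure D4:**
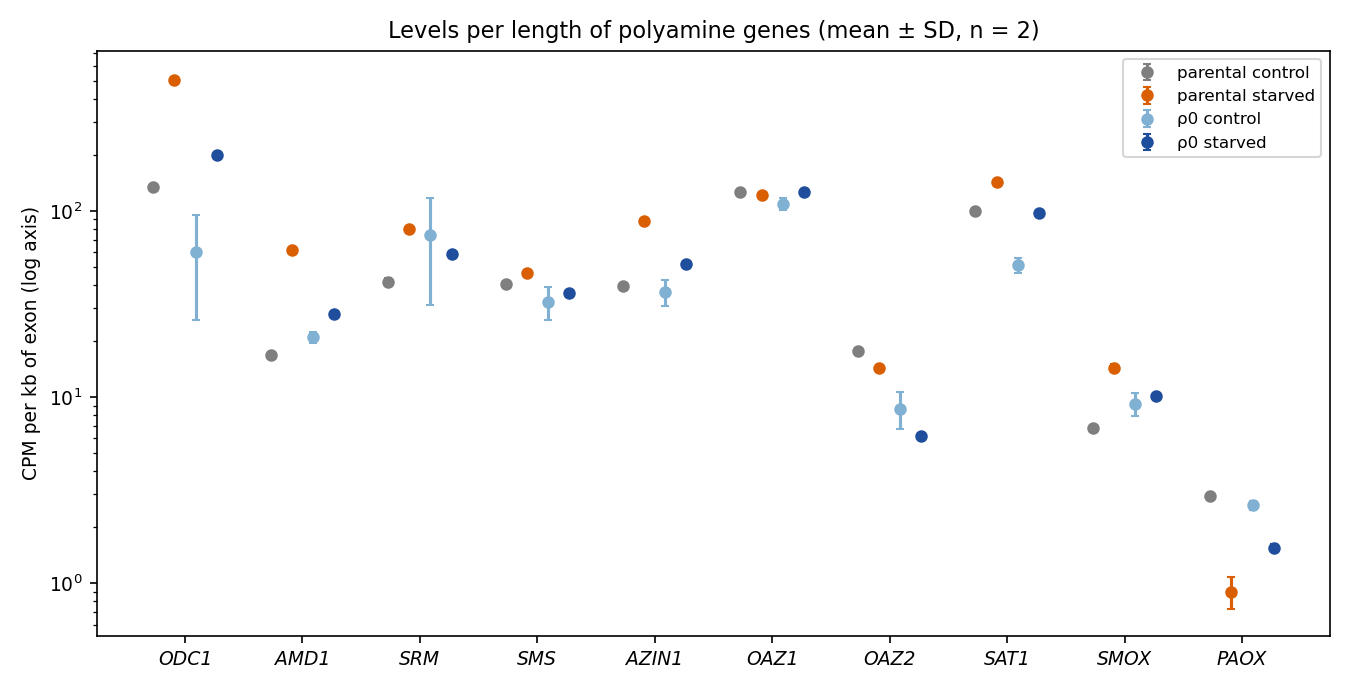
CPM per kb of exon (log axis) of the 10 polyamine genes in the 4 groups; points are means and bars SD over 2 libraries. ODC1 is highest in arginine-starved parental cells (503) and PAOX lowest in each group, and the widest bars are those of ODC1 and SRM in ρ0 controls.

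The surrounding pathway was described with a list of 42 further genes, of which 37 were tested. In parental cells 13 of 37 were called higher and 11 lower on starvation, in ρ0 cells 13 higher and 1 lower, and in the interaction 11 higher and 8 lower. Over all tested genes these shares were 30.4% and 35.5%, 19.2% and 22.1%, and 21.6% and 18.8%. Without either ρ0 control more of the list was called in ρ0 cells, both higher and lower, and more of all tested genes were called as well. The interaction calls rose without either ρ0 control and fell without any other single library, as did those over all tested genes. The median log2 values of the 37 were 0.09, 0.20 and -0.01, beside -0.07, -0.02 and 0.02 over all tested genes. ARG1, SLC25A2, MTAP, OAZ3, SATL1, AOC1 and ATP13A4 had means under 1 CPM. MTAP, the first enzyme in the salvage of methylthioadenosine that spermidine and spermine synthesis release, had at most 1 count in a library of either line.

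Of the 6 transcription factors on the list, 5 were called higher and 1 lower in parental cells, and all 6 were called higher in ρ0 cells. Over all genes 30.4% were higher and 35.5% lower in parental cells and 19.2% higher in ρ0 cells. The list had been chosen with earlier results of these data known, so these shares are a description. MYC rose from 588 and 590 CPM to 3102 and 3154 CPM in parental cells (log2 fold change 2.41 ± 0.15 SE, edgeR adjusted p = 1.71e-05). In ρ0 cells MYC rose from 132 and 186 CPM to 634 and 637 CPM (1.997 ± 0.15, edgeR adjusted p = 0.000182). This ρ0 rise was 1.77 without ρ0 control replicate 1 and 2.28 without replicate 2. The arginine-starved ρ0 level of MYC was near its parental control level, while that of ODC1, at 597 and 584 CPM, was above its own. The compared groups differ in both line and treatment, and a part of MYC in the ODC1 levels was not tested.

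Among listed genes with a mean of at least 10 CPM, transport genes gave the largest called rise and the largest called fall in parental cells. SLC3A2, the heavy chain of several amino acid transporters that has been tied to polyamine export, rose from 135 and 144 CPM to 1426 and 1448 CPM in parental cells (log2 fold change 3.37 ± 0.25 SE, edgeR adjusted p = 2.81e-05). In ρ0 cells it rose from 304 and 535 CPM to 1158 and 1158 CPM (1.46 ± 0.23, edgeR adjusted p = 0.00232), with an interaction of -1.90 (adjusted p = 0.00387). Without ρ0 control replicate 1 and 2 its ρ0 rise was 1.11 and 1.94, and its interaction -2.26 and -1.46. ATP13A3, a polyamine-transporting P-type ATPase, rose by 2.03 on the log2 scale in parental cells (edgeR adjusted p = 1.03e-05). It also rose in ρ0 cells (1.31, adjusted p = 2e-04), with an interaction of -0.72 (adjusted p = 0.00761). SLC12A8 fell from 12.5 and 16.0 CPM to 1.70 and 1.31 CPM in parental cells (log2 fold change -3.24 ± 0.19, adjusted p = 1.34e-05) and held between 20.1 and 22.9 CPM in the 4 ρ0 libraries. Its interaction was 3.34 (adjusted p = 0.000232). SLC7A2, a carrier of arginine, lysine and ornithine, rose in ρ0 cells from 23.9 and 51.6 CPM to 147 and 147 CPM (1.96 ± 0.30, edgeR adjusted p = 0.00228), with an interaction of 1.75 (adjusted p = 0.0141). Without ρ0 control replicate 1 and 2 the SLC7A2 rise was 1.51 and 2.63, and its interaction 1.30 and 2.39. SLC47A1, with a mean of 3.42 CPM, was the 1 list gene called lower in ρ0 cells with all 8 libraries (-0.94, edgeR adjusted p = 0.0237).

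Hypusination is the use of spermidine to modify eIF5A. In parental cells 3 of its 4 genes were called, where 65.9% of all genes were, and in ρ0 cells the edgeR adjusted p-values of the 4 ranged from 0.217 to 0.426. These depended on the ρ0 control library, since DOHH (0.68, adjusted p = 4.02e-05), EIF5A (0.51, 2.37e-07) and EIF5A2 (0.77, 9.28e-08) were called higher there without replicate 2, and DHPS (0.29, 0.00147) without replicate 1. DHPS, deoxyhypusine synthase, fell from 99.1 and 99.2 CPM to 32.5 and 34.7 CPM in parental cells (log2 fold change -1.56 ± 0.12 SE, edgeR adjusted p = 3.01e-05). It held 53.0 and 42.6 CPM in ρ0 controls and 50.2 and 53.8 CPM in arginine-starved ρ0 cells, and the interaction was 1.68 (adjusted p = 0.000544). DOHH, deoxyhypusine hydroxylase, and EIF5A2 rose in parental cells (1.39 and 1.35, adjusted p = 0.00127 and 0.000817), and their interactions were -1.14 (adjusted p = 0.0275) and -1.005 (adjusted p = 0.0284). Without ρ0 control replicate 2 these were smaller, -0.74 and -0.62, and without replicate 1 they were -1.46 and -1.32. MRI1, of methylthioadenosine salvage, fell from 37.4 and 40.01 CPM to 18.02 and 17.9 CPM in parental cells (-1.11 ± 0.09, adjusted p = 4.19e-05).

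**Figure D5:**
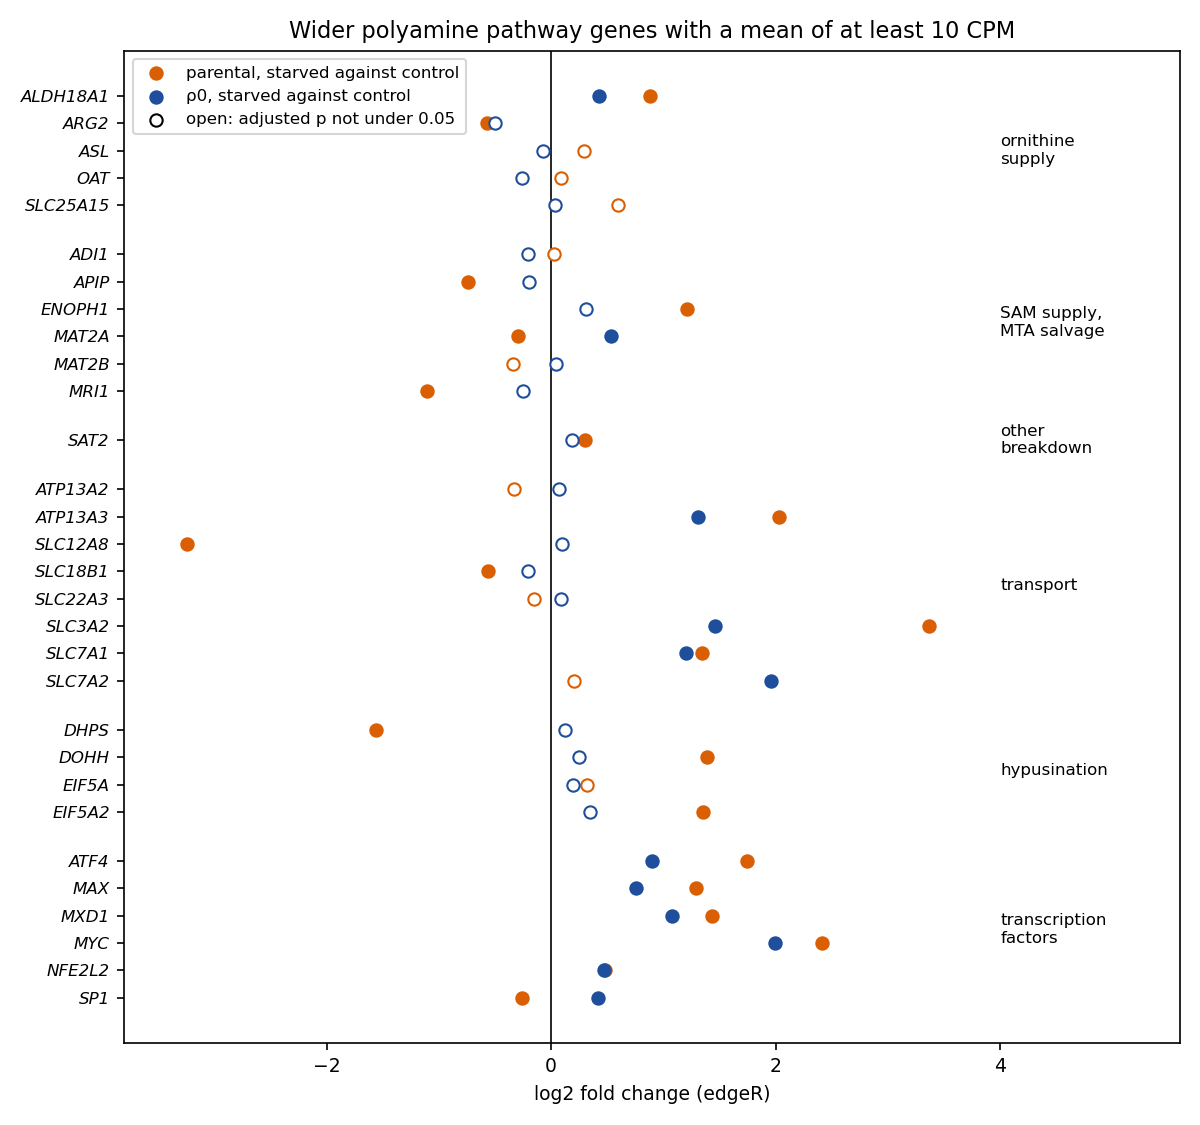
Log2 fold change on starvation (horizontal axis) of the further pathway genes with a mean of at least 10 CPM, grouped by role, in parental (orange) and ρ0 (blue) cells; open points did not pass the adjusted p threshold. SLC3A2 (3.37) and SLC12A8 (-3.24) are the extremes in parental cells, and the transcription factors lie to the right in ρ0 cells.

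Of 8 tested genes listed under ornithine and agmatine supply, 1 was called higher and 2 lower in parental cells, and 2 higher in ρ0 cells. Over all genes these shares were 30.4%, 35.5% and 19.2%. Among the 2 lower genes was AZIN2, which was put on this list although its name is that of an antizyme inhibitor. AZIN2, a paralogue of AZIN1, moved against it in parental cells, from 13.9 and 13.7 CPM to 5.43 and 5.96 CPM (log2 fold change -1.28 ± 0.16 SE, edgeR adjusted p = 0.000267); it was named after its values were seen. ASS1, the enzyme of arginine synthesis that is silenced in this line, was at or below 0.300 CPM in the 4 parental libraries. It held 6.35 and 11.5 CPM in ρ0 controls and 23.1 and 22.3 CPM in arginine-starved ρ0 cells, and it was likewise named after its values were seen.

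The genes most like ODC1 over the 8 libraries, by Pearson's r of log2(CPM + 1) among 5589 genes with a mean of at least 10 CPM and a range of group means of at least 1, were MRPS16 (0.996), RPS6KA5 (0.993) and ZBTB40 (0.992). For SAT1 they were USP3 (0.999), FLOT1 (0.997) and PDGFA (0.996). Among members, AMD1 went most closely with AZIN1 (r = 0.96) and SMOX (0.95) and against PAOX (-0.97). The 8 points fall into 4 groups of 2, so these values describe the pattern over groups.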

How the data were processed

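The authors deposited, for 8 libraries (2 per group), the raw count of reads on each gene symbol. The submitters' processing notes name the build hg19 and the tools Bowtie and Partek; versions, annotation, counting rule and strandedness are not given in the sources used here. Tests used edgeR 4.0.16 in R 4.3.3 (filterByExpr on the groups, TMM, quasi-likelihood), with limma 3.58.1 and DESeq2 1.42.0 for alternatives. All 8 libraries entered 1 fit with a mean per group (4 residual degrees of freedom, prior 3.40, biological coefficient of variation 12.4%), and p-values were adjusted over 15262 genes by the Benjamini-Hochberg method. Standard errors were obtained from the F statistic as its root divided into the log2 fold change, and confidence intervals use the fit's degrees of freedom.

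Alternatives were other scalings, other filters, DESeq2, limma-voom with and without group weights, blocking on the replicate number, fits restricted to 1 line, a removed length trend and leaving out each library. From the wider list, the 3 largest called rises and falls per starvation comparison and interaction, with a mean of at least 10 CPM, are named, with all 10 members; others are said to be named after their values were seen. The members and lists were chosen with earlier results of these data known. On simulated counts, 72% of 50 genes with a log2 change of 1, 92% of 50 with 2, 68% with -1 and 86% with -2 were called, and 13 others. Only these genes were changed, in arginine-starved parental libraries alone, with the same spread in all groups. In the data 65.9% of tested genes were called on parental starvation and the spread differed between groups, so these rates need not carry over. Exon lengths are from GENCODE v29 (GRCh38) and promoter sequences from RefSeq (GRCh38.p14), whereas the counts were made on hg19. Processed pseudogenes of SRM and AMD1 are annotated, are not listed in the table, and could have shared reads. PAOX rests on the fewest counts of the members, from 50 to 228 a library.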

Additional observations from a re-analysis of the deposited data

Results flagged for a closer look

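The starvation response differed between parental and ρ0 cells, by the interaction term of the edgeR fit, for 5 of the 10 polyamine genes, where 40.4% of all tested genes differed. On the log2 scale, ρ0 minus parental, the difference was -1.46 for AMD1 (adjusted p = 0.000258), -0.94 for SMOX (0.00444), -0.67 for AZIN1 (0.014), 0.94 for PAOX (0.0209) and 0.40 for SAT1 (0.0319). AMD1, AZIN1 and SMOX rose in parental cells and rose less or were not called in ρ0 cells, PAOX fell in both lines and fell less in ρ0 cells, and SAT1 rose in both and rose more in ρ0 cells. The calls of AMD1 and SMOX held in each leave-one-out fit, and those of AZIN1, PAOX and SAT1 did not.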

How the results depend on the processing

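Over the 5 comparisons and the 10 members, 800 values kept their direction and side of the threshold under an alternative, 60 lost and 50 gained a call, and 10 reversed. The median of all genes on parental starvation was -0.07 with TMM, -0.19 with upper-quartile and -0.23 with total-count scaling, so that small changes depend on the scaling. With total counts 3 members were DEGs in parental cells. With the ρ0 libraries fitted alone 2 members were called in ρ0 cells, where 19.6% of all tested genes were. SMS reversed in the interaction with upper-quartile (0.067) and total-count scaling (0.059) and with the length trend removed (0.013). Over the fits without 1 library, it ranged from -0.24 to 0.19 there and from -0.021 to 0.37 in ρ0 starvation, SRM from -0.83 to 0.44 in ρ0 starvation, ODC1 from -0.67 to 0.53 and OAZ2 from -0.43 to 0.060 in the interaction, and AZIN1 from -0.21 to 0.058 between control lines. Those fits called 3 to 9 members in ρ0 starvation, 2 to 10 in the interaction, 2 to 8 between control lines and 5 to 10 between starved lines, with 1 to 2 DEGs in ρ0 starvation and 1 to 3 between control lines. Of the wider list they called 11 to 28 in ρ0 starvation and 10 to 32 in the interaction. The highest counts came without a ρ0 control library, whose pair then no longer enters the spread. With the replicate number as a block, 7, 6, 5, 5 and 8 members were called, as without it. The shares of all tested genes called were then 64.8%, 38.8%, 37.6%, 60.9% and 65.5%. Deviations of same-numbered libraries correlated between -0.12 and 0.073 over 6 pairs of groups, so the numbers were not taken to pair the samples.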
